A study of Homo sapiens with 4 samples.

Results

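MACC1 and 6 genes of the MET receptor axis (SH3BP4, MET, HGF, MST1R, GAB1 and GRB2) were followed in the human cell line 293FT carrying either wild-type or mutated NIPBL, which encodes the loader of the chromosome-folding complex cohesin. These 7 genes were found among the 58174 genes of each deposited table by matching identifiers to GENCODE release 29, and all 7 passed the filter on low counts. MACC1 was chosen by its measured level, near silent in wild type and high in the mutants, so its difference between genotypes is described here without a test. The other 6 were chosen for their known or proposed ties to MACC1 and MET.

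293FT is an immortal line of embryonic kidney origin, and it carries the SV40 large T antigen in both groups. Each genotype, NIPBLwt and NIPBLmut in the labels, has 2 libraries, numbered 1 and 2, and both were grown in DMEM with serum and no named treatment. The labels state neither what the mutation is nor how many clones were used, and do not say that libraries came from separate cultures. P-values therefore speak of the spread among these samples only, which could be technical. Ribosomal RNA was removed before strand-specific sequencing, and the expected counts (RSEM's read estimates for each gene) summed to between 31545743 and 33161120 per library. NIPBL itself averaged 43.1 ± 1.87 and 61.5 ± 0.658 CPM (wild type, mutant; SD, n = 2 each; log2 fold change 0.51, SE 0.11, edgeR adjusted p = 0.057). With the mutation unnamed, its transcript level is no check of genotype.

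MET is a receptor tyrosine kinase of epithelial cells that binds hepatocyte growth factor, HGF. In kidney epithelium this pair is known for driving cell scattering and the branching of tubules. The activated receptor is docked by the adaptor GRB2 and the scaffold GAB1, which pass the signal to the RAS-ERK and PI3-kinase routes. MST1R, also called RON, is the closest relative of MET and binds the HGF-like ligand MST1. MACC1 was described as a metastasis-associated gene of colon cancer whose product is proposed to raise transcription of MET, and SH3BP4 is its paralog, known for a role in clathrin-dependent uptake of the transferrin receptor.

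MACC1 lies on the minus strand of chromosome 7 at 20134655 to 20217404 (hg38, the build of the files), and a noncoding gene, AC005083.1, starts 173 bases beyond its start on the other strand. The stretch upstream of MACC1 is shown because both genes were low in wild type and higher in mutant libraries. It is chr7:20217405-20217634 on the minus strand, 230 bases from the RefSeq promoter table (GRCh38.p14). Capitals mark the 46 bases that the first exon of AC005083.1 covers on the opposite strand. The 250 bases before the RefSeq start of MET, chr7:116671946-116672195 on the plus strand, are shown because MET is the proposed target. There capitals mark the GC box letters GGGCGG.
MACC1 upstream: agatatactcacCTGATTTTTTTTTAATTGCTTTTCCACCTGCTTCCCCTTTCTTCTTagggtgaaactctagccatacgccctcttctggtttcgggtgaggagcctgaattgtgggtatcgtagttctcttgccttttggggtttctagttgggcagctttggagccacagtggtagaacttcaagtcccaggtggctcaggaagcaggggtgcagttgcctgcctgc
MET upstream: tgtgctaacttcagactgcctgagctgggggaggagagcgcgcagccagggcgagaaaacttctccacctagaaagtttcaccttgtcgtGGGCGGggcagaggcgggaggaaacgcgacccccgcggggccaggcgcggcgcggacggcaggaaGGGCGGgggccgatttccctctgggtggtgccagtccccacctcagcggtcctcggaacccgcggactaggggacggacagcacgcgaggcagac

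On either strand the MACC1 stretch held 0 matches to each of the GC box (GGGCGG), an AP-1 site (TGANTCA), a C/EBP site (TTGCNNAA) and a TATA box (TATAAA). Among 35116 RefSeq promoter windows of 230 bases, 41.8%, 6.13%, 8.18% and 9.91% held these letters. The MET window held 2 GC boxes and 0 matches to the other motifs, and 42.6% of windows of 250 bases held at least 1 GC box. The GC content was 49.6% upstream of MACC1 and 68.4% upstream of MET, against a median of 58% over all windows. These matches describe letters and not binding.

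MACC1 was present at 0.484 and 0.469 CPM in wild-type replicates 1 and 2 and at 12.9 and 14.2 CPM in mutant replicates 1 and 2, where CPM (counts divided by library size) were scaled by trimmed means, TMM. These levels rested on 15 and 14 expected counts in wild type against 435 and 493.79 in mutant. Both mutant libraries stood above both wild-type libraries, by 26.6-fold for the closest pair and 30.3-fold for the widest. The ratio of the group means was 28.4, with a 95% interval of 19.7 to 42.7 from the exact binomial that covers counting error only, and the fitted log2 fold change was 4.82 (SE 0.23). Ordered by log2 fold change from the largest rise down, MACC1 was number 41 of 14456 tested protein-coding genes. Among tested coding genes, 1644 had a wild-type mean under 1 CPM, and of these 10 reached a mean of 10 CPM in mutant libraries, MACC1 among them, and 16.5% of the 1644 were called higher. The rank and that share are background only, since MACC1 was picked for this pattern. In bulk RNA, more cells with MACC1 transcripts and more transcripts per cell cannot be told apart.

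On the length-adjusted scale of the deposited TPM (transcript abundance relative to the library's total), MACC1 went from 0.05 and 0.07 in wild type to 2.44 and 2.9 in mutant libraries. GENCODE lists 5 MACC1 transcripts, and the 3 coding ones are 9159, 2994 and 2686 bases long. The deposited length, which weights transcripts by abundance, was 6923 and 4840 bases in wild type and 4643 and 4327 bases in mutant libraries. The wild-type lengths rest on 15 and 14 counts. MACC1-AS1, annotated antisense within MACC1, had 0 counts in all 4 libraries, and AC005062.1, which overlaps MACC1 on the same strand, had at most 3.21 counts.

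**Figure D1:**
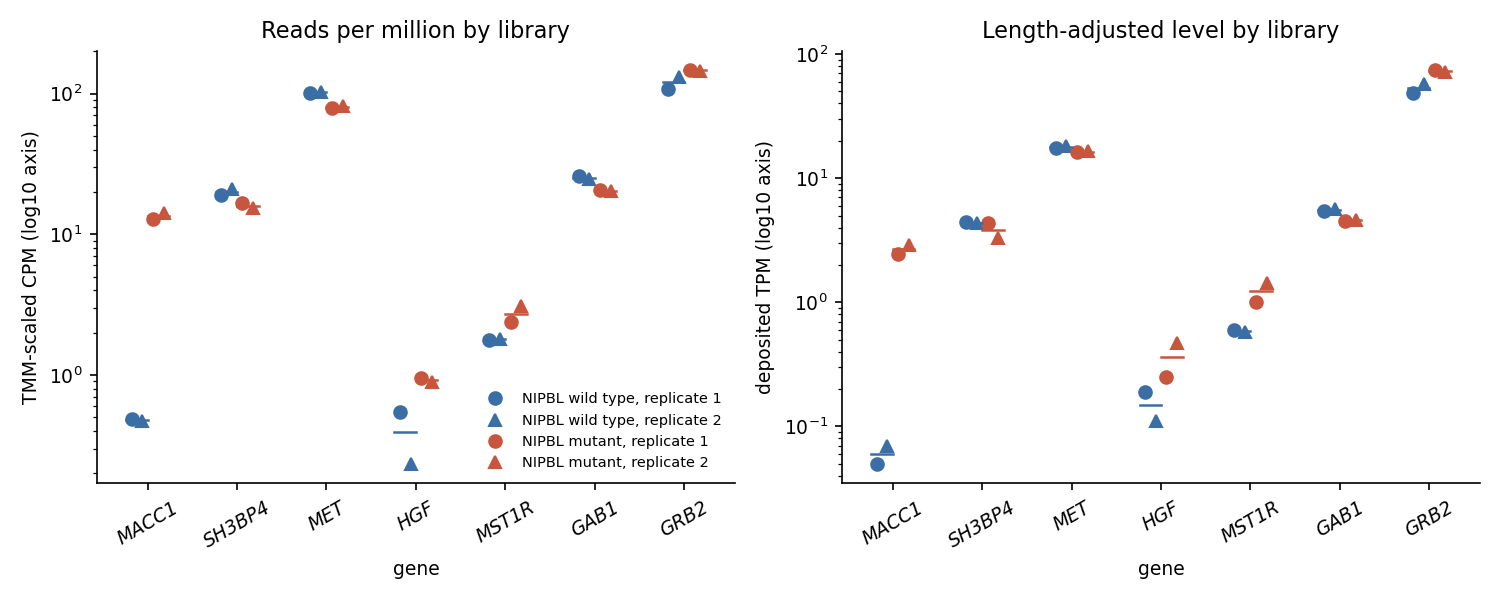
Level of each of the 7 genes in every library, as TMM-scaled CPM (left) and deposited TPM (right), both on log10 axes; points are libraries and short lines are group means (n = 2 each). In the TPM panel MACC1 lay below HGF in wild type and averaged 2.67 TPM in mutant libraries, under SH3BP4 at 3.82.

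Markers of other cell types were read beside MACC1. Over all 18984 tested genes 3.71% were called higher and 2.1% lower, and each list below is set against these shares. Of 14 epithelial markers 8 were tested and 2 called higher, KRT8 and EPCAM (log2 fold change 0.83 and 1.18, edgeR adjusted p = 0.0295 and 0.0361). Among the 8 tested, 6 had a positive and 2 a negative log2 fold change. The summed level of the 14 was 87.9 and 100 TPM in wild type and 138 and 129 TPM in mutant libraries. GRHL2, KRT7, KRT19, ELF3, OVOL1 and CLDN4 were too low to test. Fits without a mutant library, given here and below, take their spread from the wild-type pair alone, whose libraries differed more. A call lost there does not by itself show that a difference rests on 1 mutant library. KRT8 and EPCAM were not called by edgeR without mutant replicate 1 (adjusted p = 0.174 and 0.0914) or replicate 2 (0.128 and 0.221), and EPCAM also not once a regional value was removed (0.0674), namely the median over 25 tested coding neighbours to either side of a gene. Of 16 mesenchymal markers, 14 tested, 2 were called higher (LUM and PDGFRB) and 3 lower (ZEB2, COL3A1 and VIM). Among these 14, 10 had a positive and 4 a negative log2 fold change, with a median of 0.26. The sum was 260 and 259 TPM in wild type and 234 and 224 TPM in mutant libraries. LUM, ZEB2 and VIM lost their calls when either mutant library was left out (adjusted p = 0.0741 to 0.5), and COL3A1 without mutant replicate 1 (0.0909) and in 6 other settings, limma-voom among them (0.0506). Of 12 kidney line markers, 9 tested, edgeR called 0 higher and 4 lower (NEFM, LIN28B, SIX2 and VIM). That list is mixed and does not measure kidney identity. It holds the kidney developmental factors PAX2, PAX8, LHX1, WT1 and SIX2. The rest are the neuronal filament genes NEFM, NEFL, NEFH and INA, with LIN28A, LIN28B and VIM. DESeq2, limma-voom and limma-trend on TPM each called 1 of the 9 higher. A positive log2 fold change was found for 2 and a negative one for 7. The sums were 294 and 305 TPM in wild type against 210 and 202 TPM in the mutants. VIM is counted in both the mesenchymal and the kidney line list and enters both sums. SIX2 also lost its call without mutant replicate 1 or 2 (0.254 and 0.219) and LIN28B without replicate 2 (0.0652), while NEFM kept its call in every alternative run. With the regional value removed LIN28B, VIM and ZEB2 were not called (edgeR adjusted p = 0.0557, 0.0732 and 0.11). On TPM limma-trend did not call SIX2, VIM or ZEB2 (adjusted p = 0.0759, 0.0839 and 0.0835). The part of these marker shifts in the MACC1 level was not tested.

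The order of the levels, read in TPM since genes differ in length, was the same at the top in both genotypes. GRB2 led with a mean of 53.1 ± 6.7 TPM in wild type and 72.7 ± 1.7 TPM in mutant (SD, n = 2 each here and below). MET followed at 17.8 ± 0.269 and 16.4 ± 0.354 TPM, then GAB1 at 5.56 ± 0.141 and 4.58 ± 0.0566 TPM and SH3BP4 at 4.38 ± 0.0636 and 3.82 ± 0.721 TPM. In wild type MST1R (0.59 ± 0.0141 TPM), HGF (0.15 ± 0.0566 TPM) and MACC1 (0.06 ± 0.0141 TPM) closed the order. In mutant libraries MACC1 (2.67 ± 0.325 TPM) stood above MST1R (1.23 ± 0.304 TPM) and HGF (0.36 ± 0.156 TPM). No neighbouring pair in either order overlapped between its 2 libraries, and with n = 2 no test of the order was made.

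None of the other 6 genes was called at an edgeR adjusted p under 0.05, the threshold used throughout, while 5.81% of all 18984 tested genes were. DESeq2, limma-voom and limma-trend on TPM also called 0 of the 6, against 13.2%, 6.62% and 4.94% of all genes. At an unadjusted edgeR p under 0.05 stood 3 of 6 (MET, HGF and GAB1), against 29.8% of all genes. The groups did not overlap in CPM for any of the 6, as for 63.2% of all tested genes. 3 had a positive and 3 a negative log2 fold change.

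MET, the receptor (chromosome 7, 116672390 to 116798386, plus strand), was at 101 and 103 CPM in the wild-type pair and at 79.3 and 81.9 CPM in the mutant pair. Both mutant libraries were lower, opposite in sign to MACC1. The log2 fold change was -0.34 (SE 0.11, 95% interval -0.61 to -0.07, edgeR adjusted p = 0.111). With total counts in place of scaling it was -0.17 and on log2(TPM + 1) -0.11, where the median over all genes moved to 0.17 and 0.12. It was called only in the 2 fits with 1 wild-type library left out (adjusted p = 6.55e-08 without replicate 1 and 3.57e-06 without replicate 2), which take their spread from the close mutant pair alone. The nearest 25 tested coding genes on each side of MET had a median of -0.13.

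MST1R, the MET relative (chromosome 3, 49887002 to 49903873, minus strand), was at 1.77 and 1.81 CPM in the wild-type pair and at 2.37 and 3.07 CPM in the mutant pair. The mutant libraries were higher but differed from each other more than the wild-type ones did. The log2 fold change was 0.60 (SE 0.27, 95% interval -0.081 to 1.29, edgeR adjusted p = 0.208). It was 0.40 without mutant replicate 2 and 0.77 without mutant replicate 1. AC105935.1, annotated antisense to MST1R, had at most 8 counts in any library, and the strand setting of the counting is not given.

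HGF, the ligand (chromosome 7, 81699008 to 81770438, minus strand), was scarce in all libraries, with 17 and 7 expected counts in wild type and 32 and 31 in mutant. These counts correspond to 0.548 and 0.234 CPM in the wild-type pair and to 0.947 and 0.891 CPM in the mutant pair. The mutant libraries were higher, while the wild-type pair differed by more than its mutant counterpart. After library scaling the mutant to wild-type ratio was 2.33 (95% interval 1.44 to 3.9, counting error only) and the log2 fold change 1.22 (SE 0.48, edgeR adjusted p = 0.162). It was 1.94 without wild-type replicate 1 (adjusted p = 0.00105, with the spread taken from the close mutant pair alone) and 0.74 without wild-type replicate 2.

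GRB2, the adaptor (chromosome 17, 75318076 to 75405709, minus strand), was at 108 and 132 CPM in the wild-type pair and at 146 and 145 CPM in the mutant pair. The upper wild-type library lay nearer to the mutant pair than to the other wild-type library. The log2 fold change was 0.28 (SE 0.14, 95% interval -0.068 to 0.62, edgeR adjusted p = 0.24). Without wild-type replicate 1 it was 0.13, and without replicate 2 it was 0.43 (adjusted p = 1.80e-09, again on the spread of the mutant pair). Its neighbours had a median of 0.28, and with that regional value removed GRB2 was at -0.0066.

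GAB1, the scaffold (chromosome 4, 143336762 to 143474568, plus strand), was at 25.9 and 24.7 CPM in the wild-type pair and at 20.5 and 20.3 CPM in the mutant pair. Both mutant libraries were lower. The log2 fold change was -0.31 (SE 0.12, 95% interval -0.60 to -0.016, edgeR adjusted p = 0.153). It was -0.14 with total counts, -0.47 with effective length offsets and -0.092 with the regional value of -0.22 removed. Without wild-type replicate 1 or 2, on the spread of the mutant pair, the adjusted p was 0.00488 or 0.00111.

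SH3BP4, the MACC1 paralog (chromosome 2, 234951973 to 235055714, plus strand), was at 18.9 and 21.0 CPM in the wild-type pair and at 16.7 and 15.3 CPM in the mutant pair. Both mutant libraries were lower, and the SD was 1.05 CPM in the mutant and 1.51 CPM in the wild-type pair. The log2 fold change was -0.32 (SE 0.14, 95% interval -0.66 to 0.025, edgeR adjusted p = 0.192). Its neighbours had a median of -0.44, and with that removed the value was 0.12. With total counts it was -0.14. Without wild-type replicate 1 or 2, on the spread of the mutant pair, the adjusted p was 2.05e-04 or 0.0496.

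**Figure D2:**
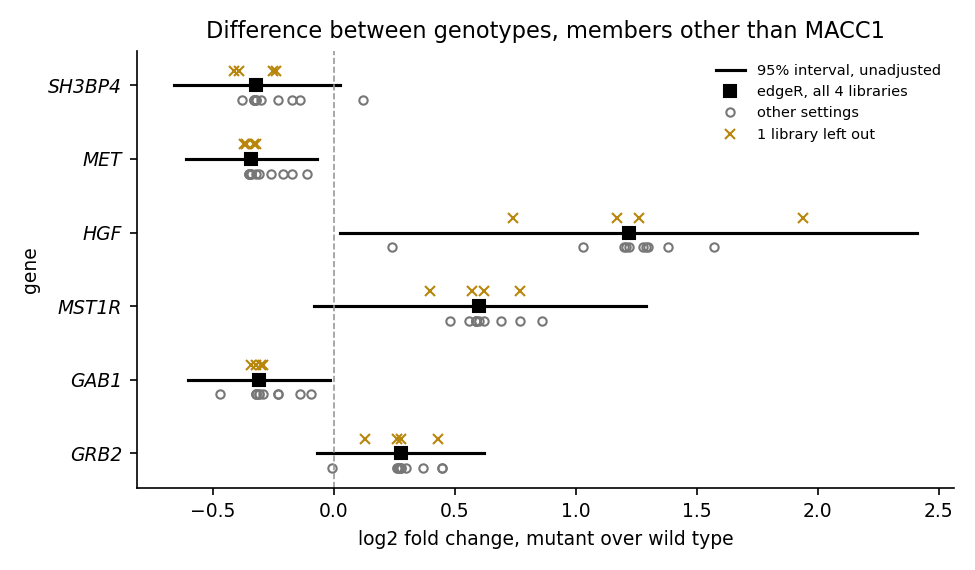
Log2 fold change of mutant over wild type for the 6 genes other than MACC1: squares and bars give the edgeR estimate with its unadjusted 95% interval, circles other settings and crosses fits with 1 library left out. MET and GAB1 stayed below 0 in all settings drawn, HGF and MST1R above it, while SH3BP4 (0.12) and GRB2 (-0.0066) crossed it with the regional value removed.

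Around MACC1, the gene with the closest start site was also higher in both mutant libraries. AC005083.1 (ENSG00000233834, plus strand, 20217577 to 20221700) had 2 and 0 counts in wild type and 27 and 26 in mutant libraries. This gene was singled out after its values were seen. It passed the filter only through its mutant counts, so the direction of its call was fixed. After library scaling the mutant to wild-type ratio was 23.5 with a 95% interval of 6.2 to 199 (counting error only). The edgeR adjusted p was 0.0416, or 0.0525 with the regional value removed, and is no separate support.

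ITGB8, an integrin subunit that pairs with alpha-v and helps activate latent TGF-beta, starts 113 kb from the MACC1 start. It was at 2.03 and 2.38 CPM in the wild-type pair and at 5.35 and 5.57 CPM in the mutant pair. Both mutant libraries stood above both wild-type libraries, and ITGB8 rose by a log2 fold change of 1.31 (SE 0.22, edgeR adjusted p = 0.0397). Its call was lost when either mutant library was left out (adjusted p = 0.192 without replicate 1 and 0.262 without replicate 2), with effective length offsets (0.0623) or on TPM (0.0645).

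Of 4 other tested coding genes within 1 Mb of MACC1, 1 was called, ITGB8, against 5.81% of all tested genes. The other 3 were not called. TWISTNB, an RNA polymerase I subunit, had -0.064 (SE 0.18), the transporter ABCB5 -0.62 (SE 0.72) and the transcription factor SP8 0.027 (SE 0.33). ABCB5 rested on at most 12 counts a library. The nearest 25 tested coding genes on each side of MACC1 had a median log2 fold change of 0.0021. Within 1 Mb of MET, 0 of 6 other tested protein-coding genes were called by edgeR, DESeq2, limma-voom or limma-trend. Over all tested genes these methods called 5.81%, 13.2%, 6.62% and 4.94%. At an unadjusted edgeR p under 0.05 stood 2 of the 6, against 29.8% of all genes. These 6 ranged from -0.68 (ST7) to -0.025 (TES), with CAPZA2, which neighbours MET, at -0.45 (SE 0.15) and the caveolae genes CAV1 and CAV2 at -0.16 and -0.28.

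**Figure D3:**
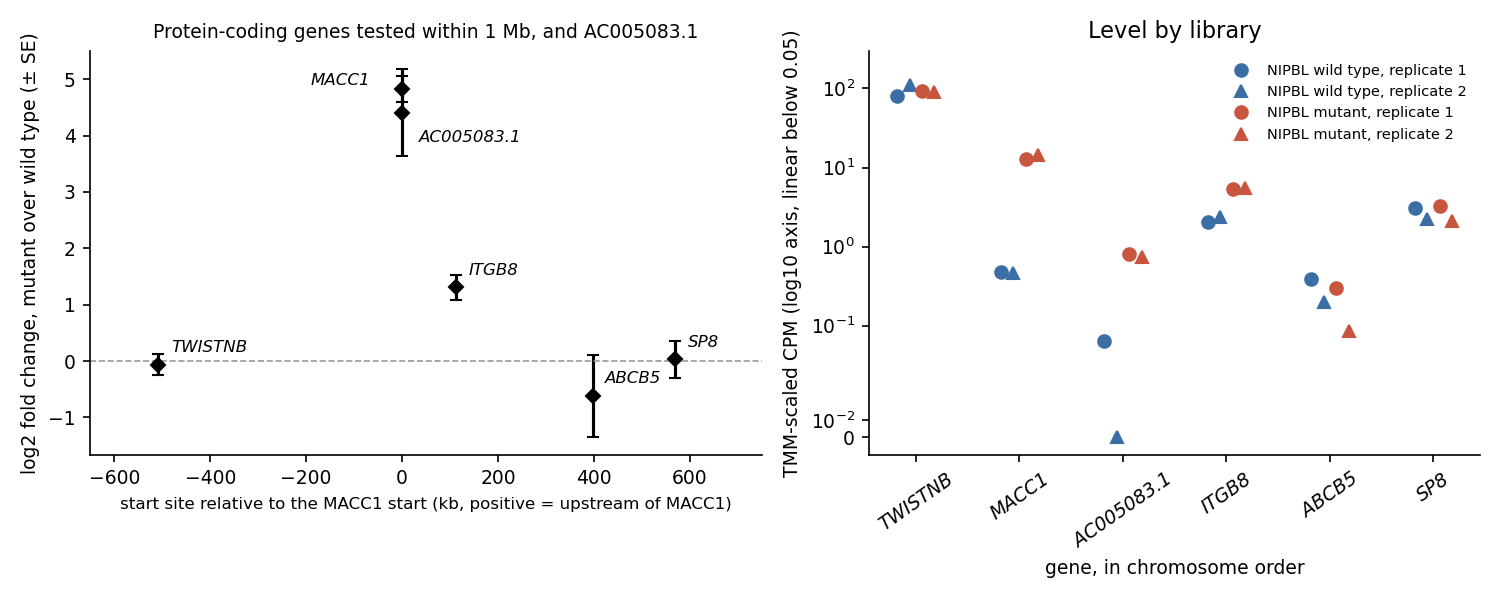
Left, log2 fold change (± SE) of the tested protein-coding genes within 1 Mb of MACC1 and of AC005083.1 by the distance of their start sites from that of MACC1 in kb; right, TMM-scaled CPM of the same genes in each library on a log10 axis that is linear below 0.05. MACC1, AC005083.1 and ITGB8 lie above 0, at 4.82, 4.41 and 1.31, and the bars of TWISTNB, ABCB5 and SP8 reach 0.

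Protein-coding genes whose 4 log2 CPM values lay among the 5 closest to those of MACC1, by Euclidean distance over the 4 libraries, included KRT17, NALCN, PDGFD and UBE2QL1. Their distances ran from 0.537 (the keratin KRT17) to 1.03 (the ubiquitin-conjugating enzyme UBE2QL1). NALCN, a sodium leak channel, was at 0.585 and PDGFD, a ligand of the PDGF receptor beta, at 0.957. These 4 lie on chromosomes 17, 13, 11 and 5, and none of them is on chromosome 7. Any gene this close to MACC1 is low in wild type and high in the mutants, so their own folds are no separate result.

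Among 58 receptor tyrosine kinase genes MET held rank 3 and 4 by TPM in wild-type replicates 1 and 2 and rank 5 in both mutant libraries. RYK and PTK7, both with inactive kinase domains, led in all 4 libraries. Of the 52 tested members of this list 5 were called higher and 1 lower, with a median log2 fold change of 0.14, against 3.71% higher, 2.1% lower and a median of -0.0055 over all tested genes. EPHB6, an ephrin receptor with an inactive kinase, rose from 1.93 ± 0.413 to 8.15 ± 0.0573 CPM. ERBB4, a neuregulin receptor, rose from 1.65 ± 0.63 to 9.38 ± 0.628 CPM, and PDGFRB, the PDGF receptor beta, from 0.602 ± 0.379 to 4.26 ± 0.0885 CPM. These 3 had edgeR adjusted p-values of 0.0264, 0.0289 and 0.037 and kept their calls in every alternative run. EPHA1 (2 and 0 counts in wild type, 39 and 27 in the mutants) and NTRK3 (3 and 0, then 41 and 38) were also called higher. Both passed the filter on low counts through the mutant libraries, where they are high, so the direction of these calls was fixed. Both lost their calls with effective length offsets (adjusted p = 0.0953 and 0.107). They also lost them on TPM (0.0641 and 0.0846), and NTRK3 with the regional value removed (0.0509). EPHA4 fell by 0.71 (edgeR adjusted p = 0.0488). Its call was lost in 6 alternatives, among them those without mutant replicate 1 (adjusted p = 0.166) or replicate 2 (0.432).

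**Figure D4:**
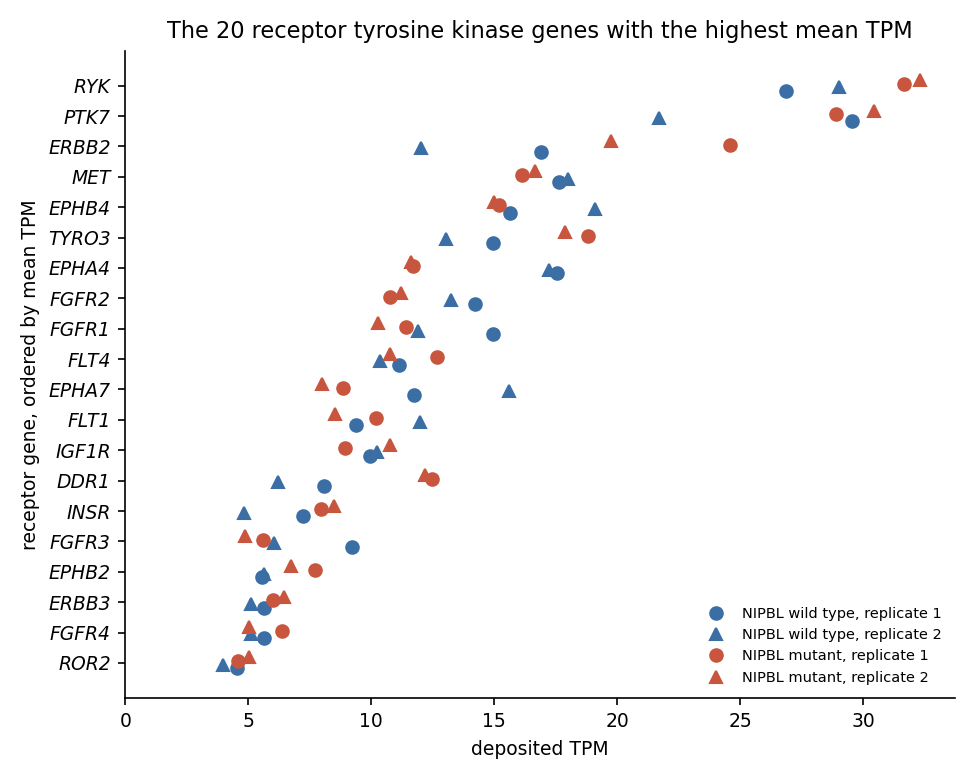
Deposited TPM of the 20 receptor tyrosine kinase genes with the highest mean over all libraries; each point is a library. MET sits between 16.15 and 18.01 TPM in all 4 libraries, with the mutant points just to the left of the wild-type points.

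Of 13 ligand and ligand-processing genes 9 passed the filter, and 1 was called higher and 1 lower, against 3.71% and 2.1% of all tested genes. The median log2 fold change was 1.13, and genes low in wild type can pass the filter through their mutant level. SPINT1, an inhibitor of the proteases that activate HGF, was higher in the mutants, at 10.0 ± 0.163 CPM against 3.70 ± 1.11 CPM (log2 fold change 1.43, SE 0.25, edgeR adjusted p = 0.0421). PLAT, tissue plasminogen activator, fell from 40.6 ± 6.63 to 20.7 ± 0.925 CPM (-0.97, SE 0.15, adjusted p = 0.0368). Neither was called by edgeR without mutant replicate 1 (adjusted p = 0.0728 for SPINT1 and 0.0629 for PLAT) or replicate 2 (0.0951 and 0.119). The regional fit also lost both (0.0617 and 0.0724), and upper quartile scaling, total counts and TPM lost PLAT (0.0509 to 0.0608).

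Of the proteases known to activate HGF, HGFAC and HPN were not tested, with at most 0.08 TPM in any library, and ST14 reached at most 0.17 TPM. SPINT2, a second inhibitor, ranged from 47.38 to 74.53 TPM and was not called (log2 fold change 0.18). MST1, the MST1R ligand, was at 8.22 and 2.17 TPM in the wild-type pair and at 6.89 and 7.76 TPM in the mutant pair, so the groups overlapped. MST1 has near-identical pseudogene copies, which makes its counts uncertain.

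Of 14 receptor partners 13 were tested, 0 were called higher and SDC2, a heparan sulfate proteoglycan, was called lower (3.71% and 2.1% over all genes). SDC2 went from 79.0 ± 2.15 to 51.0 ± 1.33 CPM (log2 fold change -0.63, SE 0.11, edgeR adjusted p = 0.0399) and was not called without mutant replicate 1 (0.387) or replicate 2 (0.367), nor in 4 other settings. DESeq2 called 2 of the 13 higher. Of 24 adaptors and direct effectors 1 was called higher and 0 lower, with a median of 0.059, against the same shares. PIK3CA, the catalytic subunit of PI3-kinase alpha, rose from 28.7 ± 2.87 to 45.8 ± 0.643 CPM (0.68, SE 0.12, adjusted p = 0.0444). That call was lost when either mutant library was left out (0.279 and 0.273), with effective length offsets (0.0537) or with the regional value of 0.23 removed (0.113).

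Of 21 RAS, ERK and AKT relay genes edgeR called 0, limma-voom and limma-trend 0 and DESeq2 1, which was lower. Over all tested genes edgeR called 5.81%, limma-voom 6.62%, limma-trend 4.94% and DESeq2 13.2%. An unadjusted edgeR p under 0.05 was found for 3 of the 21, against 29.8% of all genes. CDC42, a small GTPase of the actin cytoskeleton, had the smallest p, at -0.71 (SE 0.17, adjusted p = 0.0713), and the kinase PAK1 was next at 0.37 (SE 0.13, adjusted p = 0.126). Of 22 receptor shut-off genes 19 were tested, 0 were called higher and SPRY2, a feedback inhibitor of receptor signalling, was called lower. The shares over all tested genes were 3.71% and 2.1%. The ubiquitin ligase CBL, which marks activated MET for breakdown, had 0.0069 (SE 0.11).

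ERK output genes are transcripts known to follow ERK activity. Of 18 tested members 2 were called higher and 2 lower, with a median of -0.39 (3.71%, 2.1% and -0.0055 over all genes). A positive log2 fold change was found for 5 and a negative one for 13. An unadjusted edgeR p under 0.05 was found for 10 of the 18, against 29.8% of all genes. EGR1, an immediate early transcription factor, rose from 1.94 ± 0.0979 to 6.05 ± 1.52 CPM (edgeR adjusted p = 0.0391). ETV4, an ETS factor, rose from 0.792 ± 0.300 to 3.43 ± 0.504 CPM (adjusted p = 0.0399). SPRY2 fell to 17.8 ± 1.92 CPM from 31.7 ± 2.84 CPM (-0.83 on the log2 scale, adjusted p = 0.0405), and the second lower gene was EPHA4. Both are also counted in the lists above. Without mutant replicate 1 edgeR did not call ETV4 (adjusted p = 0.0909) or SPRY2 (0.102). Without replicate 2 it did not call EGR1 (0.236) or SPRY2 (0.291). SPRY2 and ETV4 were not called with the regional value removed (0.0525 and 0.0643), nor EGR1 and SPRY2 on TPM (0.0506 and 0.067).

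**Figure D5:**
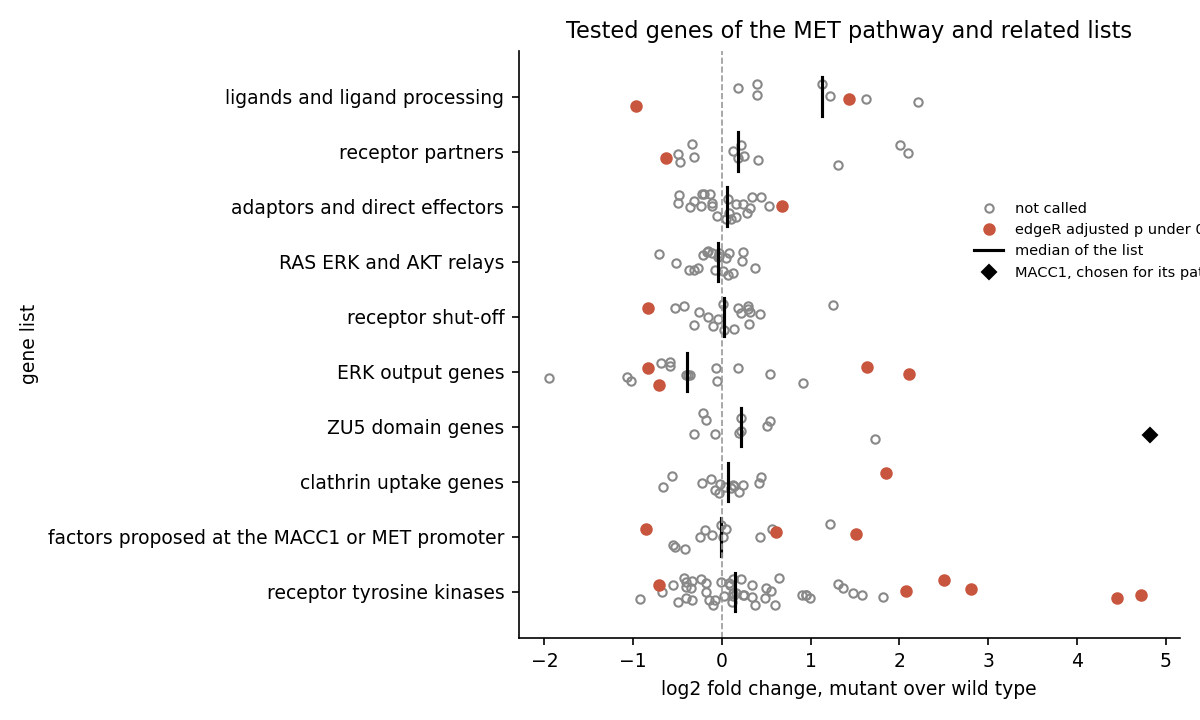
Log2 fold change of every tested gene in 10 lists of the MET pathway and related genes; filled points were called by edgeR, open points were not, the black bar is the list median and the diamond is MACC1. RAS, ERK and AKT relay genes hold no called gene, and the ERK output list has called genes on both sides of 0. Among all tested genes 5.81% were called.

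Among genes with a ZU5 domain, the protein fold that MACC1 shares with SH3BP4, the netrin receptors of the UNC5 family and the ankyrins, 10 besides MACC1 were tested. edgeR called 0 of them, 2 had an unadjusted p under 0.05, and DESeq2, limma-voom and limma-trend on TPM each called 1. The shares over all tested genes were 5.81%, 29.8%, 13.2%, 6.62% and 4.94%, in the same order. UNC5A, chosen after its values were seen, averaged 0.866 ± 0.325 CPM in the wild-type pair and 2.86 ± 0.0594 CPM in the mutant pair (log2 fold change 1.72, SE 0.35, edgeR adjusted p = 0.0528). It was the gene that DESeq2, limma-voom and limma-trend on TPM called (adjusted p = 0.0109, 0.045 and 0.0494). Of 16 clathrin uptake genes 1 was called higher and 0 lower, with a median of 0.063, against the 3.71% and 2.1% of all genes. BIN1, an amphiphysin that bends membranes, rose from 7.88 ± 2.44 to 28.5 ± 1.45 CPM (1.85, SE 0.23, edgeR adjusted p = 0.0289) and kept its call in every alternative run. The transferrin receptor TFRC had -0.66 (SE 0.31, adjusted p = 0.225).

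Of 15 factors proposed at the MACC1 or MET promoter, all tested, 2 were called higher and 1 lower, with a median of -0.011, against the same shares. The AP-1 subunit FOS rose by 1.51 on the log2 scale, to 14.7 ± 2.95 CPM from 5.16 ± 0.602 CPM (edgeR adjusted p = 0.0322), and its partner JUN from 124 ± 3.98 to 190 ± 13.3 CPM (0.61, adjusted p = 0.0471). YBX1, a nucleic acid-binding protein, fell by 0.86 on the log2 scale (adjusted p = 0.0373). SP1, the GC box factor, was at 125 ± 2.36 and 126 ± 0.803 CPM (log2 fold change 0.015). JUN and YBX1 were not called by edgeR without mutant replicate 1 (adjusted p = 0.299 and 0.106) or replicate 2 (0.513 and 0.25), nor FOS without replicate 2 (0.0949). JUN was also not called with RLE scaling (0.0508), nor YBX1 with the regional value removed (0.0618).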

How the data were processed

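The submitters' processing notes name STAR (2.7.3a), RSEM (1.3.1) and hg38. No annotation release or strand setting is named in the sources used here. Per the file headers, the authors deposited expected counts, TPM, FPKM and abundance-weighted transcript lengths per gene, 1 table per library. FPKM were not used. Of 58174 identifiers 57836 matched GENCODE 29.

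Expected counts were rounded, filtered with filterByExpr, scaled by TMM and tested with edgeR 4.0.16 (R 4.3.3, robust quasi-likelihood), with Benjamini-Hochberg adjustment over 18984 genes. SE is the log2 fold change over the root of F. The regional value is the median log2 fold change over the nearest 25 tested coding genes to either side. Alternatives included DESeq2 1.42.0 and limma 3.58.1, with a pseudocount of 1 on TPM. The fit was tested on simulated data. The outcome is not reported here.

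Members and lists were chosen with earlier results of these data known. Named genes are the members, up to 2 called genes per list and direction (or the 2 smallest p where none was called), the 5 closest profiles (1 is not reported here) and the tested protein-coding genes within 1 Mb of MACC1 and MET. EPHA1, NTRK3, VIM, SIX2, UNC5A, AC005083.1 and list members given as not called were named after their values were seen. Each library was counted as a sample. The 2 wild-type libraries differed by a chi-square of 42.12 a gene and the mutant ones by 3.713. These values do not show that the libraries came from separate cultures. 1 count was worth 0.0287 to 0.0335 CPM.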

Additional observations from a re-analysis of the deposited data

How the results depend on the processing

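Over all genes edgeR called 704 higher and 399 lower (63.8% higher). The counts were 1112 higher and 274 lower with total counts (80.2% higher), 1132 and 786 with no filter, and 1294 and 1206 with DESeq2 (51.8% higher). limma-trend on TPM gave 818 and 119 (87.3% higher), and the regional fit 443 and 167. With a replicate block, which treats equal replicate numbers as pairs, they were 1470 and 809. Same-numbered libraries did not deviate together (r = -0.05935 across genes), so the numbers were not taken to pair the samples. Leaving out 1 library gave 335 to 5909 higher and 64 to 5931 lower, since fits without a wild-type library take their spread from the close mutant pair alone.

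The MACC1 log2 fold change of 4.82 was 4.99 with total counts, 5.21 with effective length offsets and 1.79 on log2(TPM + 1), a scale that shrinks low genes, and 4.74 to 4.88 with 1 library left out. 2 members changed sign, both with the regional value removed: SH3BP4 to 0.12 (adjusted p = 0.615) and GRB2 to -0.0066 (0.982). With 1 library left out SH3BP4 ranged from -0.41 to -0.24, MET from -0.37 to -0.32, HGF from 0.74 to 1.94, MST1R from 0.40 to 0.77, GAB1 from -0.34 to -0.29 and GRB2 from 0.13 to 0.43. Of these 6, SH3BP4, MET and GAB1 were called when either wild-type library was left out, HGF without replicate 1 and GRB2 without replicate 2, and MST1R in no setting run. The block changed none of their calls, and of the 29 other named called genes it lost 1, VIM (adjusted p = 0.0547). HGF did not pass the stricter filter and has no value there. Many of those 29 genes lost their call without a mutant library, where the spread comes from the less close wild-type pair alone. Without mutant replicates 1 and 2, ITGB8 was at 1.33 and 1.28 (1.31 with all libraries) and KRT8 at 0.78 and 0.87 (0.83). EGR1 moved more, to 1.87 and 1.35 from 1.64. None of the 29 changed sign in any alternative in which it was tested. DESeq2 called 9 receptor kinases higher and 2 lower, where edgeR called 5 and 1, and 2 ERK output genes higher and 5 lower, where edgeR called 2 and 2. Depth limits HGF, ABCB5 and wild-type MACC1, which rest on under 35 counts a library.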

Other observations

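MACC1 is best known from colon, so intestinal markers were read too. Of 10 listed, 3 were tested and 1, the cadherin CDH17, was called higher (0.0161 ± 0.0228 to 1.04 ± 0.0421 CPM, n = 2 each). CDH17 had 1 and 0 counts in wild type and passed the filter only through the mutant libraries, where it is high, so the direction of its call was fixed. Of all tested genes 3.71% were called higher. CDX2, an intestinal transcription factor, was at 11.14 and 15.08 TPM in wild type and at 11.75 and 11.36 TPM in mutant libraries, present in all 4. FABP1 and MUC2, which define absorptive and goblet cells, had 0 counts in every library, and VIL1 reached at most 0.06 TPM.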
